A study of Mus musculus with 2 samples.

Results

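The genes described here are the late-numbered miRNAs of the mouse cortex that gave reads in both animals: miRNA genes whose symbol is Mir followed by a number of 5000 or more. They were selected on the measured values, by a level of at least 2 CPM (a gene's count over all gene counts of its library, times 1000000) in both libraries. Of 2202 miRNA genes measured, 470 had such a number and 75 of these met the level, which is 16.0%. The level itself is therefore the criterion of choice and is given as a description, with no test. The tissue was left cerebral cortex, taken from 2 females of B6CASTF1/J at an age of 2 months. These mice are hybrids of a C57BL laboratory strain with wild-derived CAST mice. Animal 1 is biological replicate 1 and animal 2 is biological replicate 2, with 1 library each, and both form a single group with no treatment named. The libraries were made from total RNA and held molecules below 30 nucleotides. The labels give each sample its own animal number but the same donor identifier, so differences between animals and between libraries cannot be told apart.

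Most miRNAs are cut out of a long primary transcript by the nuclear enzyme Drosha and then trimmed by Dicer to a short duplex with a 5p and a 3p arm. Mirtrons take another route: a short intron is spliced out, its lariat is opened, and the whole intron folds into the hairpin, so that the splice sites stand in for the Drosha cuts. In tailed mirtrons only one end of the hairpin is a splice site and the rest of the intron is trimmed away. The target preference of a mature miRNA is set largely by its seed, bases 2 to 8 from the 5′ end, and miRNAs with the same seed form a seed family. Late numbers mark miRNAs that were entered late in the naming registry.

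Animal 1 had 13533476 reads with 4415759 gene counts, and animal 2 had 10143234 reads with 2279562 gene counts. Reads that mapped nowhere were 23.4% in animal 1 and 47.1% in animal 2. A level of 2 CPM corresponded to 8.83 counts in animal 1 and 4.56 in animal 2, and a count of 0 allowed up to 0.679 and 1.32 CPM. In a list of neuron miRNAs, 11 of 14 genes reached 2 CPM in both animals, with summed levels of 58826 and 106856 CPM. Of the 5 striated muscle miRNAs, Mir1a-1, Mir1a-2, Mir133a-1 and Mir133a-2 had 0 counts in both, and Mir206 was detected. The genes at 0 are numbered copies of the same miRNAs, and reads mapping to several places were set apart. Their 0 counts therefore cannot show absence. The same limit holds for numbered copies on the neuron list, such as the Mir124a genes. All genes of the erythroid list (3), the choroid plexus and ciliated epithelium list (4), the microglia and leukocyte list (4) and the liver list (1) were detected. Their summed levels in animals 1 and 2 were 459 and 91.2 CPM for the erythroid list, and 552 and 1050 CPM for the choroid plexus and ciliated epithelium list. The microglia and leukocyte list summed to 1760 and 2313 CPM, the liver list to 60.9 and 36.8 CPM, and the muscle list to 23.6 and 16.2 CPM. In bulk tissue, fewer cells of a type and less RNA per cell cannot be told apart.

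Mature sequences were taken from the RefSeq miRNA table of build GRCm38.p6, in which 69 of the 75 genes had a mature entry, 122 entries in all. Those without one were Mir5099, Mir6953, Mir6954, Mir6971, Mir6982 and Mir7666. All sequences run 5′ to 3′, with the seed in capitals. Counts were made per gene, so they do not show which arm was read. These are the 4 genes whose hairpin fills an annotated intron from end to end, shown because both ends of such a hairpin are splice sites. The 5p arm starts at the intron's 5′ base in each of them, and the 3p arm ends at the intron's last base in all but miR-7080-3p, which stops 4 bases short of it.
mmu-miR-7080-5p: gUAGGAGCuggagguggguuugg
mmu-miR-7080-3p: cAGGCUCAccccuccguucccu
mmu-miR-6944-5p: gUGAGAGCggggggaguggcaag
mmu-miR-6944-3p: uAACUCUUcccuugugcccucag
mmu-miR-6958-5p: gUGGGAGAagaggcugcugugg
mmu-miR-6958-3p: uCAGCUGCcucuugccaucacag
mmu-miR-7068-5p: gUGAGGCUcaguauggggugg
mmu-miR-7068-3p: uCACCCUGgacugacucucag

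A larger set lay with only the 3′ end of the hairpin at the end of an intron. Mir7044, Mir7066 and Mir7019, from among the more abundant of them with both arms in the table, are shown here. They show the G-rich 5p arm that recurs in this set. The pyrimidine-rich 3p arm that also recurs is seen in miR-7066-3p and miR-7019-3p. The pyrimidine share of miR-7044-3p is below the median of 59.1% for all 3p arms of the RefSeq table.
mmu-miR-7044-5p: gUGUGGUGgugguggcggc
mmu-miR-7044-3p: aUGCAGCCccgacccucacag
mmu-miR-7066-5p: uGGGUUGGgaaaugaguagagg
mmu-miR-7066-3p: uCUACCCAuugccugccucccag
mmu-miR-7019-5p: aUCUGGGAggggcugucaggagu
mmu-miR-7019-3p: uCACCUUGgccgccucucugcag

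The last set holds genes away from an intron 3′ end: the most abundant of all 75, the gene with the largest difference between animals, one deep inside an intron and one at an intron 5′ end. miR-7689-5p and miR-5620-5p carry the same seed.
mmu-miR-7689-5p: cCGAGGCAgccuggcuuag
mmu-miR-7689-3p: uUAGAGCCagacugccuggguuu
mmu-miR-5620-5p: aCGAGGCAggggcuuugacugug
mmu-miR-6540-3p: uCUGAAGCuugcuuaccucca
mmu-miR-5617-5p: gUAAGUGAgggcaagccuucugg
mmu-miR-5617-3p: cAGGCGGCcucagcucucacu

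By host gene, 44 of the 75 hairpins lay inside an intron of a gene on their strand, 23 touched an exon of such a gene and 8 had no host on their strand. Over all 415 detected miRNA genes the same counts were 189, 123 and 103. A protein-coding gene was the host of 66 of the 75, and Mir6516 lay in the long non-coding RNA Snhg20. Of the 23 exonic hairpins, 13 also lay inside an intron of another transcript of the same host. For 5 of these (Mir6954, Mir7036, Mir7068, Mir7080 and Mir7674) the only exons touched belonged to transcripts annotated as retaining an intron. The other 10 exonic hairpins lay whole in no host intron. Host messenger RNA was not measured in these libraries.

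The 75 genes took 0.191% of gene counts in animal 1, with a 95% Clopper-Pearson interval from 0.187 to 0.195%. In animal 2 they took 0.166% (0.161 to 0.171%), for a mean of 0.178% ± 0.0175 (SD, n = 2). Intervals cover counting error within a library only. They treat reads as independent, and because the counts are of reads and not of molecules they may be too narrow. Mir7689 alone held 33.3% and 24.9% of these counts, the 3 most abundant genes 52.4% and 46.6%, and the 10 most abundant 73.3% and 69.5%. Without Mir7689 the share was 0.127% in animal 1 and 0.125% in animal 2. The difference in share between the animals thus came mainly from one gene. Genes numbered under 1000 or named let-7 took 98.8% of counts in both animals.

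**Figure D1:**
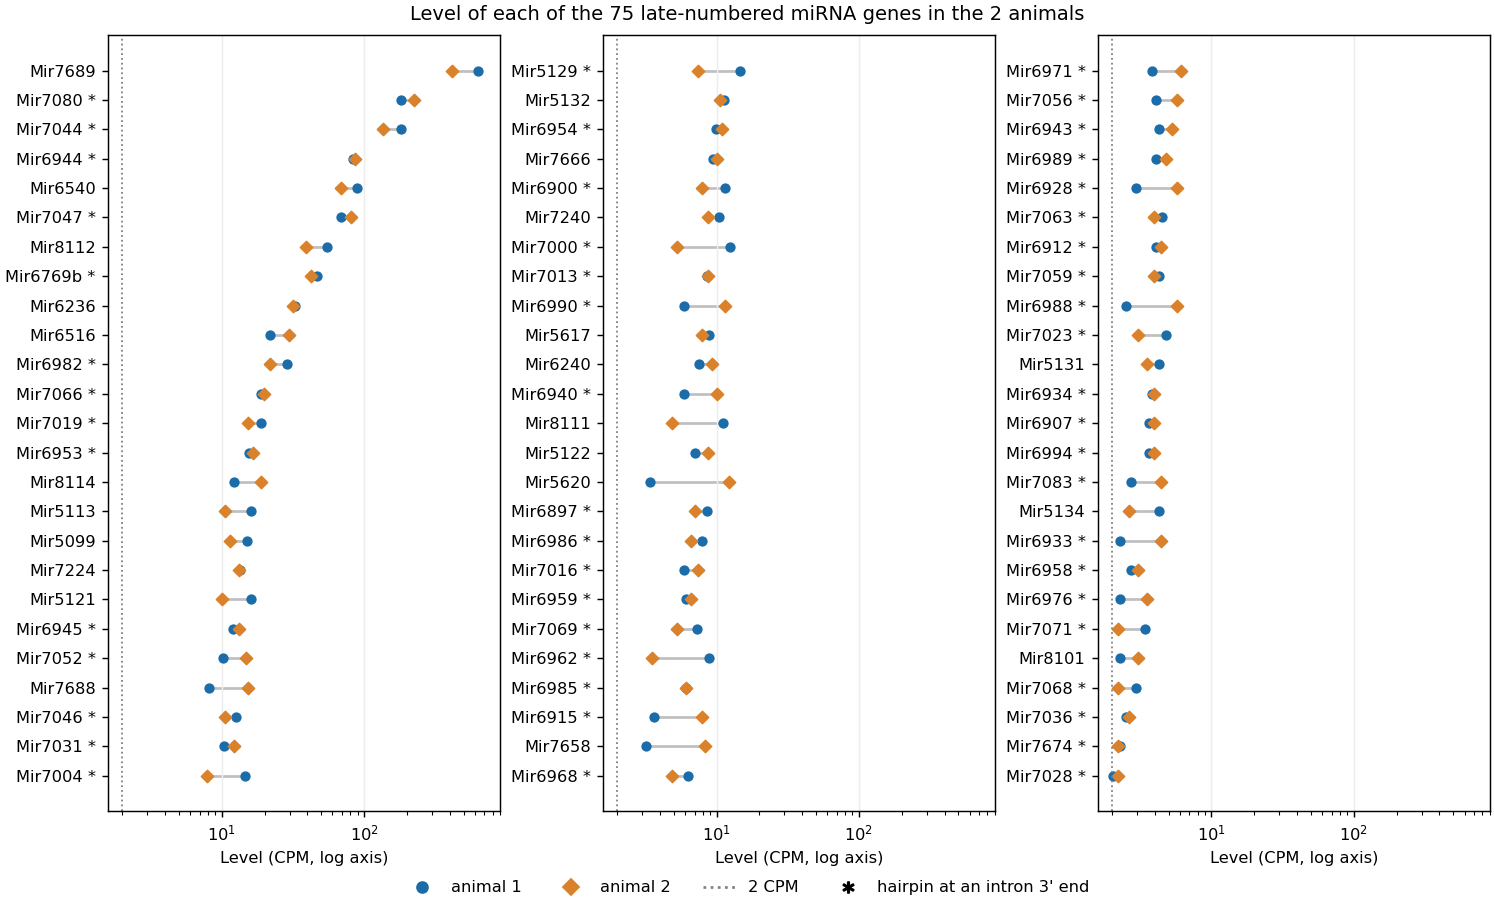
Level of each of the 75 genes in CPM (horizontal log axis), with a circle for animal 1 and a diamond for animal 2, ordered by mean level; a star marks a hairpin whose 3′ end lies at an intron 3′ end and the dotted line is 2 CPM. Mir7689 is highest in both animals, at 635 and 412 CPM, and the 55 least abundant genes range from 2.04 to 15.4 CPM.

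Among hairpins that fill a whole intron, Mir7080 (ENSMUSG00000098582.1, chr8:123130106-123130172, + strand, mm10) was the most abundant. It had 809 counts in animal 1 and 515 in animal 2, or 183 and 226 CPM (mean 205 ± 30.2, SD, n = 2). Its host is Cpne7, which encodes a copine, a calcium-dependent phospholipid-binding protein, and the intron is 67 bases long. One Cpne7 transcript retains that intron, so Mir7080 was counted as exonic by position. The read-through gene Gm20388 also spans it.

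Mir6944 (chr13:55477681-55477776, - strand) filled a 96-base intron of Dbn1, the gene of drebrin, an actin-binding protein of dendritic spines. It had 370 and 196 counts, 83.8 and 86.0 CPM, and the 2 animals differed by less than counting error. Mir6958 (chr15:89185465-89185537, - strand) filled a 73-base intron of Dennd6b with 12 and 7 counts, 2.72 and 3.07 CPM. Mir7068 (chr8:72470016-72470089, - strand) filled a 74-base intron of Cherp with 13 and 5 counts, 2.94 and 2.19 CPM. The 4 intron-filling hairpins thus ran from the detection limit to the second rank among the 75. Of all 415 detected genes, 11 filled an intron in this way.

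Counted together, 52 of the 75 hairpins (69.3%) had their 3′ end within 5 bases of the 3′ end of an intron of their host, 51 of them at the exact base. The remaining one, Mir5129 in Zeb2, reached 5 bases past the intron into the next exon. Among late-numbered genes below the detection level the count was 153 of 395 (38.7%), among detected genes numbered from 1000 to below 5000 it was 12 of 57 (21.1%), and among detected genes numbered under 1000 or named let-7 it was 3 of 270 (1.11%). Over all detected genes it was 68 of 415 and over all measured genes 230 of 2202. These shares describe annotated positions and were not tested, and for each hairpin the best matching intron of any host transcript was taken. Among the 75, the share fell to 61.4% of 44 genes at a level of 5 CPM and to 54.2% of 24 genes at 10 CPM. Of these 52 hairpins, 40 touched no exon and 12 touched one. All of the 75 numbered from 6897 to 7083 were among the 52. Outside that block of numbers only Mir6769b, Mir5129 and Mir7674 were, so the position marks this block and not late numbers in general.

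**Figure D2:**
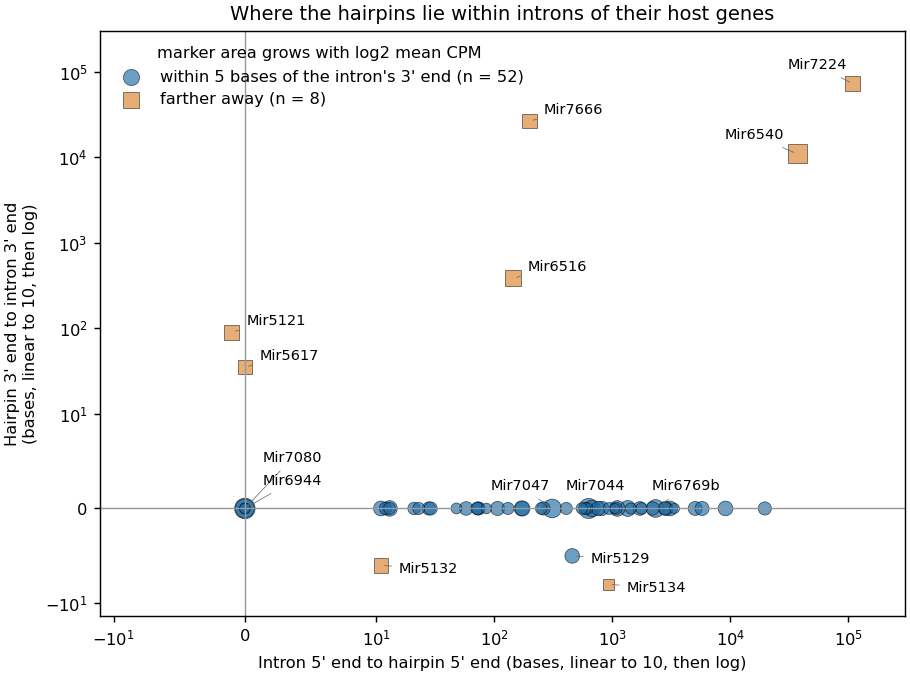
Distance from the intron's 5′ end to the hairpin's 5′ end (horizontal) against the distance from the hairpin's 3′ end to the intron's 3′ end (vertical), in bases, both axes linear to 10 and log beyond, for the hairpins with a host intron to compare; values below 0 lie outside the intron and marker area grows with the log2 mean level. Of the 52 hairpins called at an intron 3′ end (circles), 51 lie at 0 on the vertical axis and Mir5129 at -5, and the point where both axes are 0 holds the 4 hairpins that fill an intron.

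**Figure D3:**
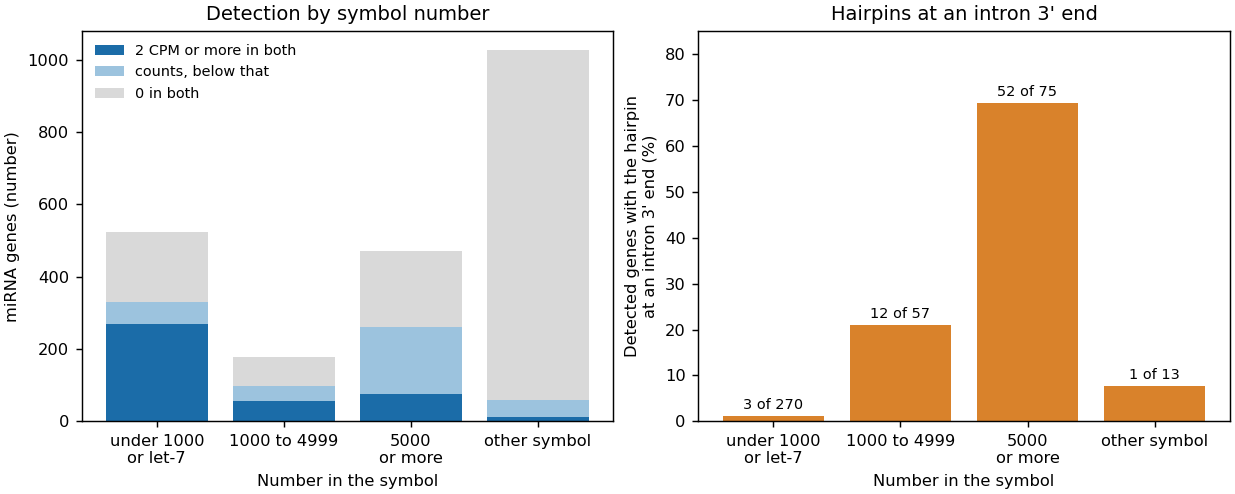
Left, number of miRNA genes by symbol number, divided into those at 2 CPM or more in both animals, those with counts below that and those at 0 in both; right, percentage of detected genes whose hairpin lies at an intron 3′ end. The right panel runs from 3 of 270 for numbers under 1000 to 52 of 75 for numbers of 5000 or more. Nearly all of these 52 are numbered from 6897 to 7083.

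The introns that ended in these 52 hairpins were 67 to 19696 bases long, with a median of 506. Where host transcripts gave introns that matched equally well, the shortest was taken, so these lengths lean to the low side. In 12 cases the intron was 100 bases or shorter, in 19 it was 200 or shorter, and in 18 it was longer than 1000. Acvr1b, an activin receptor gene, held the longest, with Mir6962 as its last 63 bases. Short introns with a few bases before the hairpin hosted Mir7046 (Rabac1, 77 bases, 11 before the hairpin), Mir6989 (Map4k2, 77, 12), Mir6953 (Grina, 81, 13) and Mir7023 (Pik3cd, 77, 13). The set therefore runs from near-complete introns to the last stretch of very long ones.

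The intronic hairpins at 3′ ends are described by what their hosts are known to do, an ordering made after the values were seen and not tested. Mir6769b (chr8:71631047-71631106, - strand) ended an intron of Unc13a, a priming factor of synaptic vesicles, with 205 and 96 counts, 46.4 and 42.1 CPM. Mir6982 (chr18:60958073-60958140, + strand) ended an intron of Camk2a, a calcium-dependent kinase subunit of excitatory forebrain neurons, with 127 and 50 counts, 28.8 and 21.9 CPM. In both of these the animals differed by less than counting error. Mir7047, also at an intron 3′ end, had 305 and 185 counts, 69.1 and 81.2 CPM.

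Mir7066 (chr8:70102524-70102586, - strand) lay in Ncan, the gene of neurocan, a proteoglycan of the brain's extracellular matrix, with 84 and 45 counts, 19.0 and 19.7 CPM. Mir6953 (chr15:76248191-76248258, + strand) lay in Grina, a gene named for an association with glutamate receptors, with 69 and 38 counts, 15.6 and 16.7 CPM. Both were nearly equal in the 2 animals. Mir7000 in Mapk8ip1, a scaffold of the JNK pathway, Mir7056 in Ptpn5, a phosphatase named for its enrichment in striatum, and Mir7063 in Ap2a2, a clathrin adaptor subunit, had mean levels of 8.86, 4.89 and 4.24 CPM.

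Signalling genes hosted a further set of intronic hairpins at 3′ ends. These were Mir7031 in Sh2b3, Mir7013 in Pi4kb, Mir6959 in Sbf1, Mir6962 in Acvr1b, Mir6985 in Ssh3, Mir6915 in Ankrd52, Mir6943 in Grk6, Mir6989 in Map4k2, Mir7023 in Pik3cd, Mir6934 in Tbc1d16 and Mir7083 in Dock6. Their mean levels ran from 3.55 CPM (Mir7083) to 11.4 CPM (Mir7031). Sh2b3 encodes an adaptor of cytokine receptors, Pi4kb and Pik3cd encode phosphatidylinositol kinases, Ssh3 a cofilin phosphatase, and Grk6 a kinase of G protein-coupled receptors.

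Membrane traffic, the endoplasmic reticulum and the lysosome were represented by Mir7046 in Rabac1, Mir7004 in Atp9a, Mir6897 in Uggt1, Mir6986 in Rce1, Mir7016 in Tmem39b, Mir6928 in Atp6v0a1, Mir7059 in Cln3 and Mir6988 in Syvn1, with mean levels of 4.10 to 11.6 CPM. Uggt1 senses misfolded glycoproteins, Syvn1 is a ubiquitin ligase of the endoplasmic reticulum, and Atp6v0a1 is a proton pump subunit. Genes acting on RNA, chromatin or translation hosted Mir7069 (Farsa), Mir6968 (Phf1), Mir6971 (Skiv2l), Mir6907 (Rrp1), Mir6994 (Patl1) and Mir6976 (Srf), at 2.89 to 6.26 CPM. Skiv2l is an RNA helicase, Patl1 a factor of messenger RNA decay and Srf a transcription factor. The remaining intronic hairpins of this kind were Mir7052 in Josd2, Mir6900 in Ndufa10, Mir6940 in Cep170b, Mir6933 in Pgs1, Mir7071 in Heatr3 and Mir7028 in Tchp, at 2.12 to 12.6 CPM. Ndufa10 is a subunit of respiratory complex I and Josd2 a deubiquitinase.

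The 12 hairpins at intron 3′ ends that also touched an exon included the 3 intron-filling ones in Cpne7, Dennd6b and Cherp. Mir7044 (ENSMUSG00000098583.1, chr6:118085192-118085263, + strand) was the third most abundant of the 75, with 798 and 308 counts, 181 and 135 CPM (mean 158 ± 32.2, SD, n = 2). It ended a 705-base intron of Rasgef1a, a Ras exchange factor gene, and 27 of its bases overlapped coding sequence of another Rasgef1a transcript. Mir7019 (chr4:138316132-138316200, - strand) ended an intron of Pink1, the mitochondrial kinase of mitophagy, and lay in the 5′ UTR of another transcript. It had 83 and 35 counts, 18.8 and 15.4 CPM. Mir6945 (chr13:55507625-55507692, - strand) ended an intron of Pdlim7, a PDZ and LIM domain protein gene, and lay in the 3′ UTR of 1 other transcript. It had 53 and 30 counts, 12.0 and 13.2 CPM.

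The rest of these 12 were Mir5129 in Zeb2, a transcription factor gene, Mir6990 in Esrra, an orphan nuclear receptor gene, Mir6912 in Scamp4, Mir6954 in Mroh1, Mir7036 in Srrt and Mir7674 in Nup214. Srrt acts in the nuclear handling of capped RNA and primary miRNA transcripts, and Nup214 is a nuclear pore protein. Their mean levels ran from 2.23 CPM (Mir7674) to 11.1 CPM (Mir5129). Mir7674 touched its retained-intron exon by 14 bases and Mir5129 its Zeb2 exons by 5.

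The 52 hairpins at intron 3′ ends together took 0.0909% of gene counts in animal 1 (0.0881 to 0.0937%) and 0.0907% in animal 2 (0.0869 to 0.0947%), so the intervals overlapped. The other 23 genes took 0.0998% and 0.0751%, the difference noted above for Mir7689 included. Which of the levels come from splicing-dependent processing cannot be read from counts per gene and was not tested.

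Away from an intron 3′ end, 4 hairpins lay inside introns. Mir6540 (chr16:42303362-42303469, - strand) lay in a 48106-base intron of Gap43, the gene of a growth cone and presynaptic protein, 10995 bases before the intron's 3′ end. It had 393 and 158 counts, 89.0 and 69.3 CPM, which made it the fifth most abundant of the 75. Mir7224 (chr2:67675457-67675516, + strand) lay 72643 bases before the end of an intron of B3galt1, a galactosyltransferase gene, with 59 and 30 counts, 13.4 and 13.2 CPM. Mir7666 lay in an intron of Fgf20, a growth factor gene, and on the opposite strand of the 5′ UTR of Micu3, at 9.80 CPM on average. Mir5617 began at the 5′ base of a 92-base intron of Syn1, the gene of the synaptic vesicle protein synapsin, and ended 35 bases before the intron did. It is the mirror case of the tailed hairpins above, and had 39 and 18 counts, 8.83 and 7.90 CPM.

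The 11 exonic hairpins not at an intron 3′ end fell into UTRs, coding exons and small RNA genes. Mir8112 (chr6:71271671-71271801, + strand) overlapped the 5′ UTR of Krcc1 by 125 bases and had 244 and 89 counts, 55.3 and 39.0 CPM. Mir8114 (chr1:153899926-153900036, + strand) overlapped the 5′ UTR of Glul, the gene of glutamine synthetase, an astrocyte enzyme, with 54 and 43 counts, 12.2 and 18.9 CPM. Mir5113 (chr15:80940039-80940120, + strand) lay in the 3′ UTR of Tnrc6b, whose protein is a partner of Argonaute in silencing by miRNAs, with 71 and 24 counts, 16.1 and 10.5 CPM. Mir8101 lay in the 5′ UTR of the histone deacetylase gene Hdac5, and Mir5131 across the 5′ UTR and coding start region of the phospholipase gene Ddhd1. These averaged 2.67 and 3.91 CPM. Mir5122, also exonic, averaged 7.90 CPM.

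Mir7658 lay whole in a coding exon of Plekhn1. Mir5132 in the kinase gene Irak1 and Mir5134 in the cyclin gene Ccnf overlapped exons and reached 6 and 8 bases past the 3′ end of an intron, just outside the 5 bases used to call an intron end. The 3p arms of Mir5132 and Mir5134 each ended in AG at the last base of that intron. Most 3p arms of the genes called at an intron 3′ end also ended in AG. Mir7658, Mir5132 and Mir5134 averaged 5.75, 10.9 and 3.47 CPM. A pair of these genes, Mir5121 and Mir6516, overlapped other small RNA genes on the same strand, so their counts cannot be assigned to the miRNA alone. Mir5121 (chr7:45126918-45126991, - strand) overlapped the small nucleolar RNA gene Snord33 within the ribosomal protein gene Rpl13a by 30 bases and began within 5 bases of the 5′ end of an Rpl13a intron. It had 71 and 23 counts, 16.1 and 10.1 CPM. Mir6516 (chr11:117077348-117077457, + strand) overlapped the small Cajal body RNA gene Gm26083 within Snhg20 by 88 bases and had 96 and 68 counts, 21.7 and 29.8 CPM.

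Of the 8 hairpins without a host on their strand, 3 lay opposite an intron of a protein-coding gene. Mir7689 (ENSMUSG00000098884.1, chr5:36301570-36301628, + strand) lay opposite Sorcs2, a sortilin family receptor gene, and was the most abundant of the 75. It had 2805 counts in animal 1 and 940 in animal 2, or 635 and 412 CPM (mean 524 ± 158, SD, n = 2), which placed it at rank 122 of the 415 detected genes. Mir7240 lay opposite Mast3 and Mir5620 opposite the chloride transporter gene Clcn4, at 9.60 and 7.84 CPM on average.

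The other 5 had no host on either strand. Mir6236 (chr9:110281287-110281409, + strand) had 145 and 72 counts, 32.8 and 31.6 CPM, and Mir5099 (chr12:36816205-36816278, + strand) had 67 and 26 counts, 15.2 and 11.4 CPM. Mir7688, Mir6240 and Mir8111 averaged 11.8, 8.34 and 7.96 CPM. Sequence copies bear on several of these. A stretch of 22 bases or more was shared with another annotated hairpin by 2 of the 75, Mir8111 and Mir8112, and with a transcript of another gene by 6. Mir8111 shared such a stretch with transcripts of 852 genes, Mir8112 with 22, Mir6236 with 4, Mir5620 with 2, and Mir7047 and Mir6240 with 1 each. Their counts are uncertain at least to that extent. Only annotated transcripts were searched, so copies elsewhere, such as in ribosomal RNA repeats left out of the annotation, were not looked for. Reads mapping to several places were set apart in the deposited tables, at 37.4% of reads in animal 1 and 25.5% in animal 2.

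Hosts that held more than one miRNA hairpin gave uneven counts in these examples. In Camk2a, Mir6982 was detected, whereas Mir7220, 4140 bases away, had 11 counts in animal 1 and 0 in animal 2. Ankrd52 held Mir6915 with 16 and 18 counts and Mir6914 with 1 and 3. Skiv2l held Mir6971 with 17 and 14 counts and Mir6970 with 7 and 1. In Irak1, Mir5132 had 50 and 24 counts, and Mir718, 250 bases away, had 4 and 0. In each of these pairs only one hairpin reached 2 CPM in both animals. That hairpin was chosen for reaching the level, so part of the unevenness follows from the choice. Ccnf, Pink1 and B3galt1 likewise held a further hairpin below that level. By contrast, 3 neighbouring host genes on chromosome 13, Grk6, Dbn1 and Pdlim7, each held one of the 75 (Mir6943, Mir6944 and Mir6945), with 24509 and 29848 bases between the hairpins.

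The hairpins of the 75 had a median of 60.0% G and C (range 37.8 to 79.6%), beside 52.4% over all detected genes and 49.4% over detected genes numbered under 1000 or named let-7. Their median length was 68 bases, beside 82 over all detected genes. Mir5099 had the lowest G and C content of the 75 and Mir5131 the highest. In the 47 3p arms of genes at an intron 3′ end, the median share of pyrimidines was 71.4%, beside 54.5% in the 3p arms of detected genes numbered under 1000 or named let-7 and 59.1% in all 3p arms of the RefSeq table. In their 5p arms the median share of G was 45.5%, beside 27.3% and 31.8%. Of these 47 3p arms, 37 ended in AG (78.7%), beside 6.47% and 27.6%, and 37 ended at the last base of the hairpin. Introns commonly end in a pyrimidine tract and AG, so the arm's base composition and the position at an intron 3′ end are not separate measurements.

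**Figure D4:**
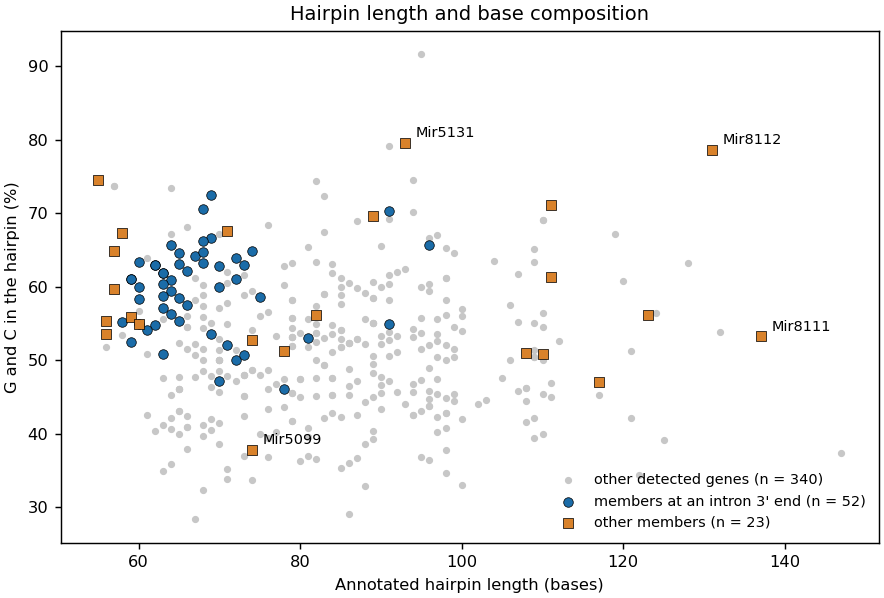
Annotated hairpin length in bases (horizontal) against G and C content in percent (vertical) for the 52 genes at an intron 3′ end (circles), the other 23 of the 75 (squares) and the other 340 detected genes (small grey points). The 52 circles lie between 58 and 96 bases, and the squares spread from 55 to 137 bases.

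The 122 mature entries of the 75 genes carried 119 different seeds, so the set does not consist of a few seed families. A seed was shared with another mouse miRNA of the table by 27 entries. Within the 75, miR-7689-5p shared CGAGGCA with miR-5620-5p, miR-7019-5p shared UCUGGGA with miR-6907-5p, and miR-7023-3p shared CACCCUG with miR-7068-3p. Seeds shared with miRNAs of far higher gene-level counts included these, each late-numbered entry followed by its partner.
mmu-miR-6240: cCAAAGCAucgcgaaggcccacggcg
mmu-miR-330-3p: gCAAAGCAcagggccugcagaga
mmu-miR-7016-5p: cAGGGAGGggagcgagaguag
mmu-miR-149-3p: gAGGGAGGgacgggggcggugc
mmu-miR-5129-3p: aAUGUGCCugugcaucucuucc
mmu-miR-455-5p: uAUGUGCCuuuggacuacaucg

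Mir330 had 13320 and 11105 CPM where Mir6240 had 7.47 and 9.21. The counts of Mir6240 are uncertain because of the shared sequence described above. Mir149 had 10899 and 11495 CPM where Mir7016 had 5.89 and 7.46, and Mir455 had 568 and 1671 CPM where Mir5129 had 14.7 and 7.46. Beside these partners the late-numbered genes were a small part of the gene-level counts that carry the seed, though the arm read in either gene is not known from the counts. The seed of miR-6958-5p, UGGGAGA, is also that of miR-30c-1-3p and miR-30c-2-3p.

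A list of 8 earlier-numbered genes, drawn up as mirtrons or intron-end miRNAs, was set beside the 75. On it, Mir877 (Abcf1), Mir1224 (Vwa5b2), Mir1981 (Marc2) and Mir3102 (Arhgef17) filled an annotated intron, and their mean levels were 417, 492, 758 and 980 CPM. Each exceeded Mir7080, the highest intron-filling hairpin of the 75, at 205 CPM. The others on the list were Mir702 at 377, Mir1839 at 1211, Mir668 at 2938 and Mir3103 at 4.09 CPM, and none of these 4 filled an intron in this annotation. Mir1839 lay at neither end of its host's intron, 388 bases after its start and 1222 before its end, so its annotated position does not match that listing. Off the list, Mir1982, which filled an intron of Oaz1, was near the detection limit at 2.49 and 2.19 CPM, and Mir3547, which filled one of Baiap3, had 72.9 and 59.7 CPM.

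Between the animals, 16 of the 75 genes lay outside counting error, meaning that of the reads a gene had in both libraries, the fraction from animal 1 had a 95% exact interval that missed the fraction set by library size. The background over all 415 detected genes was 56.6% in either direction, 27.0% higher in animal 1 and 29.6% higher in animal 2. Among the 75, 9 were higher in animal 1 and 7 in animal 2. This compares 2 libraries and not 2 conditions, and it depends on depth. At mean levels of 2 to 10 CPM, 14.9% of 47 of the genes and 26.1% of 46 other detected genes lay outside, and at 10 to 100 CPM 24.0% of 25 and 41.2% of 97. The median counting SD of the log2 ratio was 0.53 and 0.52 in the lower range. In the upper range it was 0.32 and 0.22, so there the late-numbered genes had fewer counts than the others. At 100 to 1000 CPM all 3 of the genes (Mir7689, Mir7080 and Mir7044) lay outside, beside 79.4% of 97 others, and none of the 75 was above that range. The summed neuron and erythroid marker levels and the share of unmapped reads, given above, also differed between the animals, and their part in these differences was not tested.

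The ratio of animal 1 to animal 2 was taken as log2 of CPM + 1, which understates changes of low genes. The counting intervals in parentheses belong to the plain ratio of CPM, without the added 1, and that ratio is printed with them where it differs. The median size of the log2 ratio of CPM + 1 was 0.30 over the 75 and 0.32 over all detected genes, with a median counting SD of 0.43 for the 75. The values ran from -1.60 to 1.12, and 53 of the 75 lay within 0.5 of 0. The 5 genes beyond 1 all had fewer than 60 counts in either animal. Most differences were thus no larger than counting alone allows.

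The largest was that of Mir5620, the gene opposite Clcn4, with 15 counts in animal 1 and 28 in animal 2, 3.40 and 12.3 CPM and a log2 ratio of -1.60 (plain ratio -1.85, counting interval -2.86 to -0.90). Mir7658 in Plekhn1 had 14 and 19 counts, 3.17 and 8.33 CPM and a log2 ratio of -1.16 (plain -1.39, -2.50 to -0.32). Both were higher in animal 2. In the unstranded column Mir5620 had 83 and 53 counts and a log2 ratio of -0.30, inside counting error, so its difference holds on its own strand only; no other call among the 75 changed there. Mir6962 in Acvr1b had 39 and 8 counts, 8.83 and 3.51 CPM and a log2 ratio of 1.12 (plain 1.33, 0.21 to 2.64). Mir7000 in Mapk8ip1 had 55 and 12 counts, 12.5 and 5.26 CPM and a log2 ratio of 1.10 (plain 1.24, 0.32 to 2.28). Mir8111 had 49 and 11 counts, 11.1 and 4.83 CPM and a log2 ratio of 1.05 (plain 1.20, 0.24 to 2.29). These 3 were higher in animal 1.

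Among the more abundant genes, Mir7689 had a log2 ratio of 0.62 (0.52 to 0.73), Mir7044 of 0.42 (0.23 to 0.61) and Mir6540 of 0.36 (0.09 to 0.64), all higher in animal 1. Mir8112 was also higher in animal 1, while for Mir7080 the level in animal 2 exceeded that in animal 1, the log2 ratio being -0.30 (-0.46 to -0.14). The remaining genes outside counting error were Mir7004 and Mir5129, higher in animal 1, and Mir8114, Mir7688, Mir6990 and Mir6915, higher in animal 2. Of the 52 genes at an intron 3′ end, 8 (15.4%) were outside, and of the other 23, also 8 (34.8%), beside 56.6% of all 415 detected genes. The median size of the log2 ratio was 0.27 in the former and 0.38 in the latter, beside 0.32 over all detected genes. The median level was 6.21 CPM for the 52 and 10.9 CPM for the 23, so these sets also differed in depth.

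**Figure D5:**
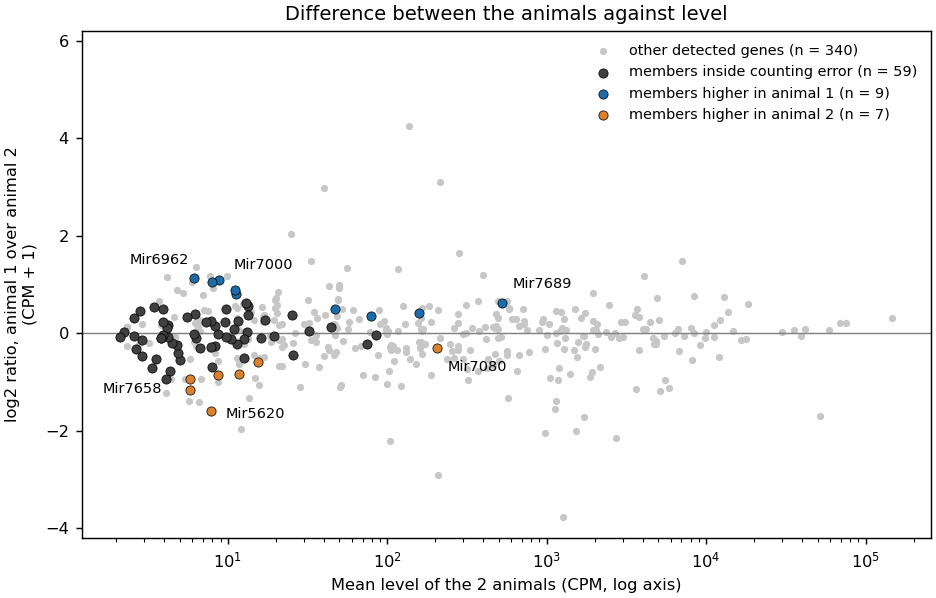
Log2 ratio of animal 1 to animal 2 (CPM + 1, vertical) against the mean level in CPM (horizontal, log axis) for the 415 detected genes, with the 75 late-numbered genes coloured by whether they lay inside counting error (59), higher in animal 1 (9) or higher in animal 2 (7). The widest ratios of the coloured points lie at mean levels below 10 CPM, with Mir5620 lowest at -1.60.

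The level of 2 CPM divided genes of nearly equal counts. Just inside it were Mir7028 in Tchp with 9 and 5 counts (2.04 and 2.19 CPM), Mir7674 with 10 and 5 (2.26 and 2.19), Mir7068 with 13 and 5 (2.94 and 2.19), Mir7071 in Heatr3 with 15 and 5 (3.40 and 2.19) and Mir6933 in Pgs1 with 10 and 10 (2.26 and 4.39). Just outside were Mir5130 in Kctd12 with 8 and 9 counts (1.81 and 3.95 CPM), Mir6913 in Dohh and Mir6998 in Fubp3 with 8 and 7 each (1.81 and 3.07), and Mir7020 in Aldh4a1 and Mir7213 in Pdgfb with 8 and 5 each (1.81 and 2.19). A difference of 1 count in animal 1 thus separated Mir7028 from Mir7020. Of the 395 late-numbered genes below the level, 15 reached it in animal 1 only, 20 in animal 2 only, 150 had counts but were under it in both, and 210 had 0 counts in both. Detection was 51.4% of 525 genes numbered under 1000 or named let-7, 31.8% of 179 numbered from 1000 to below 5000, and 1.26% of 1028 with another kind of symbol.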

How the data were processed

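The authors deposited 1 table of raw, unnormalized counts for every library, with a line for each miRNA gene. The text metadata deposited beside each table names build mm10 and annotation GENCODE M21. Aligner, trimming and read filters: not given in the sources used here. A table holds 3 columns of counts and no header, and the columns' roles were read from the values: unstranded, read strand (used here) and opposite strand. The 4 summary entries of each table (unmapped, mapping to several places, at no gene, ambiguous) were left out of totals. Reads at no gene were 6.52% and 4.91% of reads. Reads mapping to several places are a separate entry, so counts of near-identical copies are uncertain.

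CPM was the count over the sum of gene counts, times 1000000. The pseudocount of the log2 ratio was 1 CPM. All 2202 gene identifiers matched the annotation. A hairpin was exonic if at least 1 base overlapped an exon of any transcript of another gene on its strand, retained-intron transcripts included, and intronic if it lay inside such a gene without touching an exon. Intron ends were called within 5 bases, using for each hairpin the intron of any host transcript with the most matching ends, a choice that favours a match in genes with many transcripts. Among equal matches the shortest intron was used. With 1 group there was no contrast and no p-value. Intervals are exact Clopper-Pearson intervals at 95%, covering counting error only, and the code for calls was tested on simulated data. edgeR 4.0.16 and DESeq2 1.42.0 gave scaling factors only, in R 4.3.3; other steps used Python 3.11.15 with scipy 1.17.1.

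Every member was named. The hosts of Mir7047 and Mir5122 are not reported here. Values in both animals were set by rule for the 20 highest mean levels, the 5 largest log2 ratios, hairpins that fill an intron, and the 5 genes on each side of the threshold; other values were chosen after they were seen, as were the genes whose seed partners are shown and the grouping of hosts by function. The members, the marker lists and the list of earlier mirtrons were chosen with earlier results of these data known. Alternatives were other levels and symbol numbers, the unstranded column, TMM and DESeq2 scaling, leaving out genes that share 22 bases with another hairpin, other pseudocounts, other definitions of a host, and leaving out either library. The share of hairpins at an intron 3′ end under these settings, the direction of calls under each scaling, the plain ratios and the calls of single genes in the unstranded column were added after the data were seen.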

Additional observations from a re-analysis of the deposited data

Results flagged for a closer look

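Mir5620 had reads on the strand opposite to its annotation, in a count column that the comparisons above do not use. The opposite strand gave 68 counts in animal 1 and 25 in animal 2, beside 15 and 28 on its own strand. The gene lies opposite an intron of Clcn4, so the opposite strand is that of the host. Of the other late-numbered detected genes, Mir7240 had 4 and 0 opposite-strand counts and Mir5617 had 0 and 1, and the remaining ones had 0 in both animals.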

How the results depend on the processing

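The number of genes fell to 44 at a level of 5 CPM and to 24 at 10 CPM, and rose to 260 with at least 1 count in either animal. The intronic count followed, at 24, 11 and 165. The mean share of counts was 0.148% at 10 CPM and 0.429% with symbol numbers of 3000 or more. Genes outside counting error numbered 6 of 24 at 10 CPM and 26 of 260 with at least 1 count in either animal. With numbers of 3000 or more they were 27 of 107. Over all 415 genes detected at 2 CPM the share was 56.6%. It was not computed over all genes at the other levels, and the calls depend on depth. Leaving out either library gave 90 to 95 genes, 54 to 59 of them intronic, and a share of 0.171 to 0.195%. The median size of the log2 ratio ran from 0.21 to 0.52 over all alternatives; it was compared with the median counting SD of 0.43, a wide margin set after the data were seen. The share of hairpins at an intron 3′ end ran from 54.2% (10 CPM) to 78.5% (numbers of 6000 or more). With TMM factors, 10 genes were higher in animal 1 and 6 in animal 2. The background over all 415 detected genes moved the same way, from 112 and 123 with library totals to 123 and 116. Mean levels of single genes moved by less than 1% with TMM or DESeq2 scaling. In the unstranded column, Mir5620 was 2.87-fold higher and its difference between animals fell inside counting error, which left 15 genes outside. One library alone moved the mean level by over 1.5 times for Mir5620, Mir8111, Mir7000, Mir6962, Mir6988, Mir7658 and Mir6915. No paired analysis was possible because there is a single group. Depth limits the lowest genes most, since 2 CPM rests on 8.83 and 4.56 counts.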
